A study of Mus musculus with 16 samples.

Results

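miR-138 and its passenger strand, miR-138* (mmu-miR-138 and mmu-miR-138* on the array), were followed in sciatic nerves of mice that lose the enzyme Dicer in Schwann cells, the myelin-forming glia of peripheral nerve. They are 2 of the 650 miRNA names on the array and were taken by name, with all of their probes. In p4 control nerves miR-138 was well above background on all 4 arrays, and in p4 mutant nerves its background-subtracted signal was 9.85% of the control mean. The mutant signal was close to background, so this percentage is uncertain. At E17 neither strand rose clearly above background in either genotype. miR-138* was detected in p4 controls alone, and the normalized p4 difference of its brightest probe missed the size required for a call.

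The nerves came from Dicer fl/fl Dhh-Cre+ mice, called mutants here, and from Dicer wt/fl Dhh-Cre+ mice, called controls. The labels give Dicer1tm1Bdh/J, the source of the floxed Dicer allele, as the strain. Both genotypes carry the Dhh-Cre transgene. The controls keep 1 wild-type and 1 floxed Dicer allele, so they are heterozygous for the deletion in the same cells. The Dhh promoter drives Cre in Schwann cells from the precursor stage on, and the deletion is not aimed at the neurons, fibroblasts, blood vessels and blood cells whose RNA whole nerve also holds. Nerves were taken before myelination, at embryonic day 17 (E17), and 4 days after birth (p4), when control nerves have begun to form myelin. Each of the 4 groups has 4 nerve RNA samples from separate mice, and each sample was hybridized to its own 1-colour Agilent miRNA array, which makes 16 arrays.

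A miRNA is cut from a hairpin transcript. The nuclear enzyme Drosha releases the hairpin, Dicer removes its loop, and 1 strand of the resulting duplex, the guide, is loaded into an Argonaute protein, while the other, the passenger or star strand, is mostly degraded. The guide pairs with target mRNAs mainly through its seed, bases 2 to 8. miR-138 is best known from the brain, where it limits the size of dendritic spines in neurons, and from differentiating oligodendrocytes, the myelin-forming glia of the central nervous system.

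The sequences are shown to make clear what the 2 array names stand for, since the guide is made from 2 hairpins and the passenger strands of these differ. They are RefSeq entries with coordinates in build GRCm38.p6, on the + strand, written 5′ to 3′, and capitals mark the seed.
miR-138-5p, the guide: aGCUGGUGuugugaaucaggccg
miR-138-1-3p, the passenger strand of the Mir138-1 hairpin: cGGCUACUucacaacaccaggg
miR-138-2-3p, the passenger strand of the Mir138-2 hairpin: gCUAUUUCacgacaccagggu
The guide is 23 bases long and identical from both hairpins. None of the 3 seeds was found in any other of the 1679 mature miRNA names of the RefSeq table, so miR-138 has no seed family there. The passenger strands are 22 and 21 bases long, differ by an edit distance of 5 bases and share a run of 9 bases, ACACCAGGG. The run CUGGUGUUGUGAA of the guide, 13 bases long, is the reverse complement of a run in miR-138-1-3p.

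Both hairpins are shown because their positions tell which genes lie around the sources of the guide. Here capitals mark the guide and the passenger strand.
Mir138-1, chr9:122682876-122682974: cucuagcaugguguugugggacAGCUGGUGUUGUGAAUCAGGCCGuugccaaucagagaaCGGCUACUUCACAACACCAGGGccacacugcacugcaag
Mir138-2, chr8:94324311-94324381: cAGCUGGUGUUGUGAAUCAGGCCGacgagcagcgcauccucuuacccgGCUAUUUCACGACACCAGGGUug
Mir138-1 lies between the long non-coding RNA genes 9530059O14Rik and Gm51699. Mir138-2 lies inside the span of Nup93, the gene of a nuclear pore protein, and next to Slc12a3, the gene of a kidney sodium-chloride cotransporter. The signal of miR-138 cannot be divided between the 2 hairpins, since their guides are identical. miR-138* is the older name of the 3p arm of Mir138-1, and the scanner files give no probe sequences. Whether its probes also bind miR-138-2-3p was not tested.

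Each strand was read by 2 probes of 10 spots each per array. The scanner software also gave 1 background-subtracted signal per miRNA name and a flag that says whether the miRNA was detected. Summed over all names, this signal lay between 36495 and 154076 per array, and no spot was saturated. The summed signal of p4 mutants was 51.6% of that of p4 controls, and the summed signal of E17 mutants was 87.8% of that of E17 controls. A lower signal in whole nerve can mean fewer cells of a type or less of the miRNA in each cell, and these cannot be told apart. Each age was hybridized on a slide of its own, and both genotypes of an age lay on the same slide. A difference between ages therefore cannot be told apart from one between slides.

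In p4 controls the background-subtracted signal of miR-138 was 129.5, 118.5, 129.2 and 104.2 in replicates 1 to 4. In p4 mutants it was 11.9, 11.4, 9.46 and 14.7. Every control was far above every mutant, and miR-138 was detected on all 4 control arrays and on 3 of the 4 mutant arrays. The group means were 120 ± 11.9 and 11.9 ± 2.17 (SD, n = 4 each), a 10.1-fold difference. An exact two-sided permutation test gave p = 0.0286, the smallest value that 4 against 4 arrays allow, and 0.0457 after Benjamini-Hochberg adjustment over the 8 such tests of both strands. The scanner software's error for miR-138 in p4 mutants was 3.12 to 4.72 per array, so the 10.1-fold size is uncertain. Under other ways of reading the signal and with single arrays left out, the mutant signal was 9.06% to 44.6% of control.

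Since all miRNAs together were lower in p4 mutants, miR-138 was also taken as a share of each array's summed signal. It made up 0.0900% of the signal in p4 controls and 0.0172% in p4 mutants on average, so the share in mutants was 19.1% of that in controls. Of the 215 miRNAs detected on all 4 p4 control arrays, the median miRNA was at 64.6% of its control signal in mutants, before any scaling. miR-138 had the tenth lowest of these percentages. Among the 9 lower were miR-146b, miR-338-3p and miR-9, with 1.33%, 5.80% and 7.13%. miR-9 was detected on no p4 mutant array, and the brightest miR-146b probe was well above background on none. The percentages of miR-9 and miR-146b are therefore no measured sizes.

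**Figure D1:**
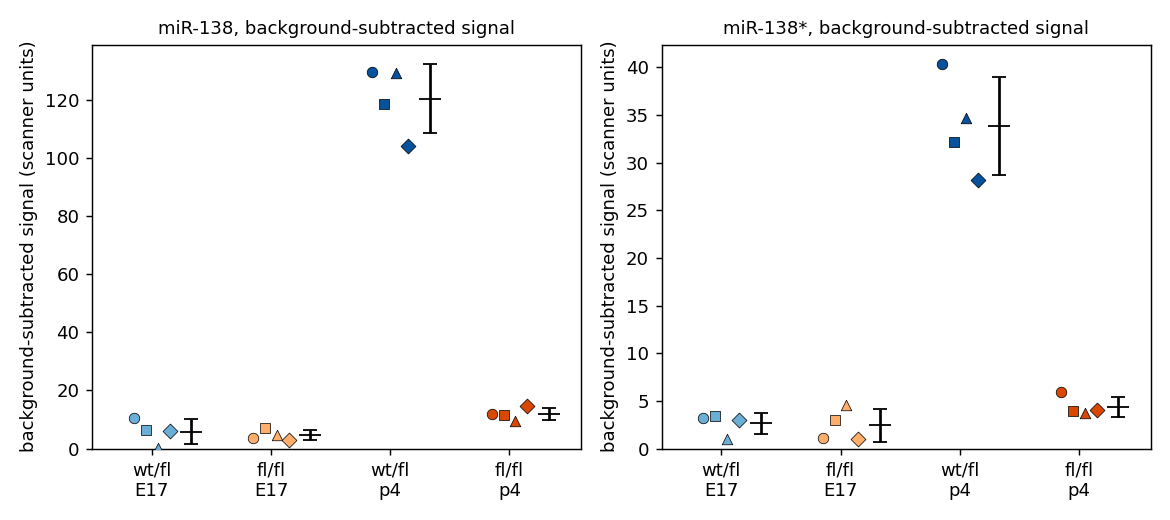
Background-subtracted signal of miR-138 (left) and miR-138* (right) on each array, in scanner units, for wt/fl controls and fl/fl mutants at E17 and p4. Points are arrays, with 1 marker shape per replicate number, and bars are the mean ± SD of 4 arrays. The p4 controls stand alone, from 104.2 to 129.5 for miR-138 and from 28.2 to 40.4 for miR-138*, while no other array passes 14.7 and 5.96.

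**Figure D2:**
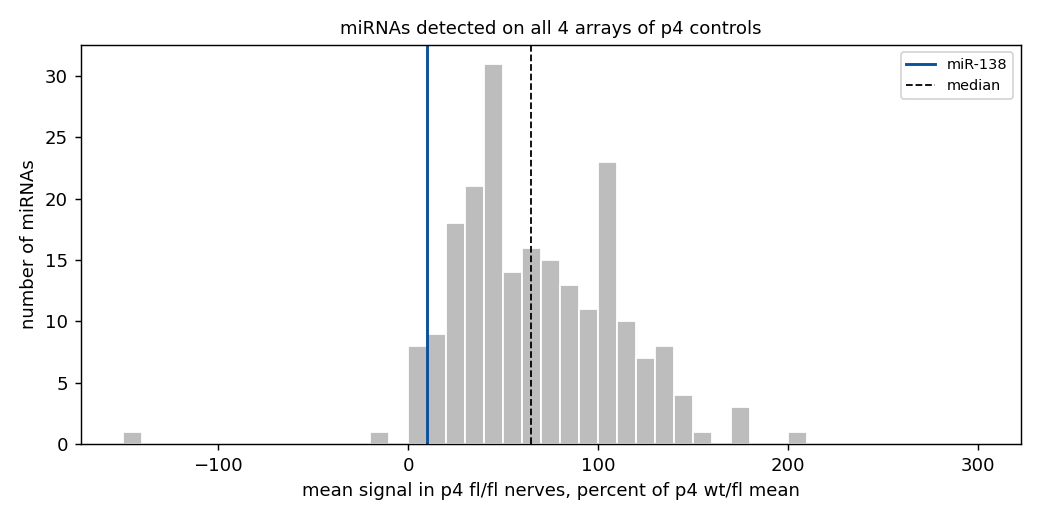
Distribution of the mean background-subtracted signal in p4 mutants, as percent of the mean of p4 controls, over the 215 miRNAs detected on all 4 p4 control arrays, in bins 10 percentage points wide. miR-138, at 9.85%, lies in the low tail, left of the dashed median of 64.6%. The 2 bars below 0 are miRNAs whose mean signal in mutants was below background.

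The tests across all miRNAs used the median spot signal on the log2 scale, quantile normalized so that each array has the same distribution. They covered 681 probes of 281 miRNAs, and a call needed both an adjusted p not above 0.05 and a log2 difference no smaller than 0.5. Background is not subtracted on this scale, so differences of dim probes come out smaller than on the background-subtracted scale. The brightest miR-138 probe read 7.28, 7.04, 7.16 and 7.12 in p4 controls and 6.22, 6.20, 6.13 and 6.28 in p4 mutants. The 2 groups were again fully apart. The probe was well above background on all 4 control arrays and on 1 of the 4 mutant arrays.

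miR-138 fell in p4 mutants by 0.94 on the log2 scale (standard error 0.0558, limma adjusted p = 1.72e-08), from 7.15 ± 0.10 to 6.21 ± 0.06 (SD, n = 4 each). No fold is given on this scale, since 3 of the 4 mutant readings were not well above background. Its second probe fell by 0.61 (standard error 0.0412, limma adjusted p = 5.68e-08), from 6.60 ± 0.07 to 5.996 ± 0.029. The second probe was well above background on no mutant array, so the control signal was at least 1.25-fold higher there. In this comparison 14.5% of all probes were called, 7.93% lower and 6.61% higher in mutants, and both miR-138 probes were among the lower. Non-overlapping groups with the mutants lower occurred for 20% of all probes.

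One very bright spot of the brightest probe on the array of p4 mutant replicate 3 was flagged as an outlier by the scanner software and left out. Outlier spots of the second probe on the array of p4 control replicate 3, the brightest with a signal of 1999.7, were left out too, and with them the mean of that probe there would be 255.8 in place of 61.6. With all flagged spots kept, the normalized difference was -0.83 and the mutant signal was 22.5% of control with both groups' outlier spots in it, against 9.77% for the same spot mean without flagged spots. On the array of p4 mutant replicate 3 the mean over all 10 spots of the brightest probe was 148.7, above the 103.7 to 139.9 of the p4 controls, while the other 3 mutants had 13.3 to 16.7. Over both probes the groups stayed apart with all spots kept (exact two-sided permutation p = 0.0286). They did so only narrowly, between p4 mutant replicate 3 and p4 control replicate 4.

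At E17 the brightest probe read 6.21, 6.13, 5.97 and 6.07 in controls and 6.06, 6.12, 6.05 and 6.05 in mutants. None of these 8 readings was well above background, and the groups overlapped. The difference was -0.03 (standard error 0.0558, limma adjusted p = 0.813), and 2.79% of all probes were called at E17. The background-subtracted signal was 10.49, 6.47, 0.307 and 6.11 in controls and 3.70, 6.99, 4.68 and 2.95 in mutants, and only the highest of these, in control replicate 1, was flagged as detected. The means of 5.85 ± 4.19 and 4.58 ± 1.75 (SD, n = 4 each) gave p = 0.629 in the exact two-sided permutation test. The scanner software's own error for these signals was 2.67 to 5.39 per array, so a difference between genotypes at E17 was not detectable at this signal.

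The p4 difference minus the E17 difference was -0.91 for the brightest probe (standard error 0.0790, limma adjusted p = 2.37e-06) and -0.60 for the second probe (limma adjusted p = 7.34e-06). Both met the limits for a call, as 6.61% of all probes did and 4.99% did in this direction. Since both genotypes were at background at E17, the E17 difference was held near 0, and this test does not show that the effect of genotype changed with age.

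In controls miR-138 rose with age. The brightest probe rose by 1.05 from E17 to p4 (standard error 0.0558, limma adjusted p = 4.20e-09), and since none of the 8 E17 arrays had it well above background, the rise was at least 1.80-fold. The second probe rose by 0.66 (limma adjusted p = 2.37e-08), at least 1.23-fold. On the background-subtracted scale the mean went from 5.85, detected on 1 of 4 arrays, to 120, detected on 4 of 4 (exact two-sided permutation test, p = 0.0286, adjusted 0.0457). The summed signal of all miRNAs in controls at p4 was itself 272% of its E17 level. As a share of the summed signal, miR-138 went from 0.0111% at E17 to 0.0900% at p4 on average. In this comparison 12.8% of all probes were called, 5.43% higher and 7.34% lower at p4. Non-overlapping groups with p4 higher occurred for 20.9% of all probes. This comparison and the p4 comparison of genotypes share the p4 control arrays, so their sizes are not independent. By their brightest probes, some markers of other cells were lower in control nerves at p4 than at E17 on the normalized scale: miR-451 and miR-486 of red blood cells by -2.81 and -0.50, miR-206 of skeletal muscle by -1.38 and miR-214 and miR-199a-5p of fibroblasts by -1.15 and -0.53, all called. miR-143 of the fibroblast and smooth muscle list went the other way, by 0.44 (limma adjusted p = 0.00980), under the limit on size. Before scaling, the summed signal of that list was 2301 to 4237 in E17 controls and 5502 to 7541 in p4 controls. The direction of this list therefore depends on the normalization. The part of these other cells in the rise of miR-138 was not tested.

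In mutants the same step was small. The brightest probe read 6.05 to 6.12 at E17 and 6.13 to 6.28 at p4, and the second probe 5.91 to 5.95 and 5.96 to 6.02. The ranges did not overlap, yet the differences of 0.14 (standard error 0.0558, limma adjusted p = 0.0840) and 0.06 (adjusted p = 0.293) met neither limit for a call. Non-overlap with p4 higher was found for 12% of all probes in mutants, and 7.05% of all probes were called. The background-subtracted signal rose from 4.58 ± 1.75, detected on none of 4 arrays, to 11.9 ± 2.17 (SD, n = 4 each, exact two-sided permutation test, p = 0.0286, adjusted 0.0457). As a share of the summed signal, which itself was 160% of its E17 level at p4 in mutants, miR-138 at p4 was 167% of its E17 share (exact permutation p = 0.0571). The rise in mutants therefore depended on the scale.

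The order of the levels of miR-138 was p4 controls, p4 mutants, E17 controls and E17 mutants, on both scales. The p4 controls stood apart from all other arrays. The p4 mutants and E17 controls were neighbours that overlapped, with 9.46 in the lowest p4 mutant and 10.49 in the highest E17 control, and the 2 E17 groups overlapped throughout.

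**Figure D3:**
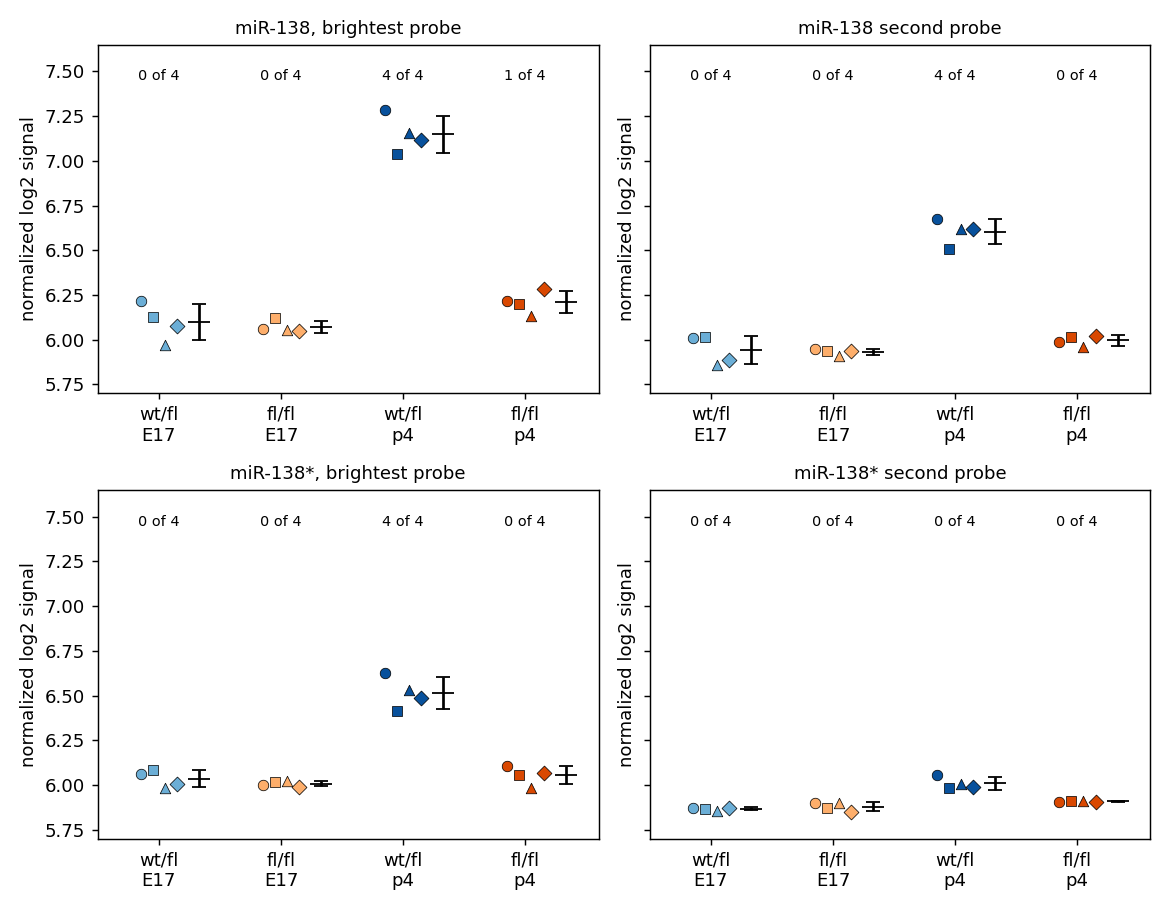
Normalized log2 signal on each array for the 2 probes of miR-138 (top) and the 2 probes of miR-138* (bottom), with 1 marker shape per replicate number and bars for the mean ± SD of 4 arrays. The counts above the points give the arrays on which the probe was well above background, which is 4 of 4 for 3 of the probes in p4 controls and at most 1 of 4 in any other group.

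The passenger strand miR-138* was detected in p4 controls alone. Its background-subtracted signal there was 40.4, 32.2, 34.7 and 28.2, and it was detected on all 4 arrays. In p4 mutants it was 5.96, 3.94, 3.69 and 4.03, and it was detected on none. The lowest control was well above the highest mutant. The means were 33.9 ± 5.13 and 4.40 ± 1.05 (SD, n = 4 each, exact two-sided permutation test, p = 0.0286, adjusted 0.0457). The mutant mean was about the size of the scanner software's error of 3.01 to 4.66 per array, so no ratio to the control mean is given.

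On the normalized log2 scale the brightest miR-138* probe read 6.63, 6.41, 6.53 and 6.49 in p4 controls and 6.11, 6.06, 5.99 and 6.07 in p4 mutants, again without overlap. The difference was -0.46 (standard error 0.0416, limma adjusted p = 8.12e-07), which passed the limit on p and missed the limit of 0.5 on size. The control signal was at least 1.17-fold higher, as the probe was not well above background in mutants. The second miR-138* probe was well above background on none of the 16 arrays, so it has no fold. Its difference of -0.10 (adjusted p = 0.00240) had the same sign. Scaling each array to its 75th percentile moved the median p4 difference of all probes to 0.79, and the brightest miR-138* probe then had 0.18, which is -0.61 relative to that median. With the same scaling miR-138 had -0.48, which is -1.28 relative to the median. This scaling shifts all probes of an array alike, so values relative to the median are the same as without normalization. Both relative values are therefore no separate check under this scaling.

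At E17 miR-138* had signals of 1.01 to 4.54 over both genotypes and was detected on none of the 8 arrays. The difference of the brightest probe was -0.03 (limma adjusted p = 0.734), and the exact two-sided permutation test of the background-subtracted signals gave p = 0.771. The brightest probe was higher at p4 than at E17 in controls by 0.48 (standard error 0.0416, limma adjusted p = 1.05e-06), at least 1.16-fold and just under the limit on size. In mutants the difference was 0.05 (adjusted p = 0.449) and the arrays of the 2 ages overlapped. The p4 genotype difference minus the E17 one was -0.43 (standard error 0.0589, limma adjusted p = 0.000179), and the limit set by background at E17 holds here too.

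**Figure D4:**
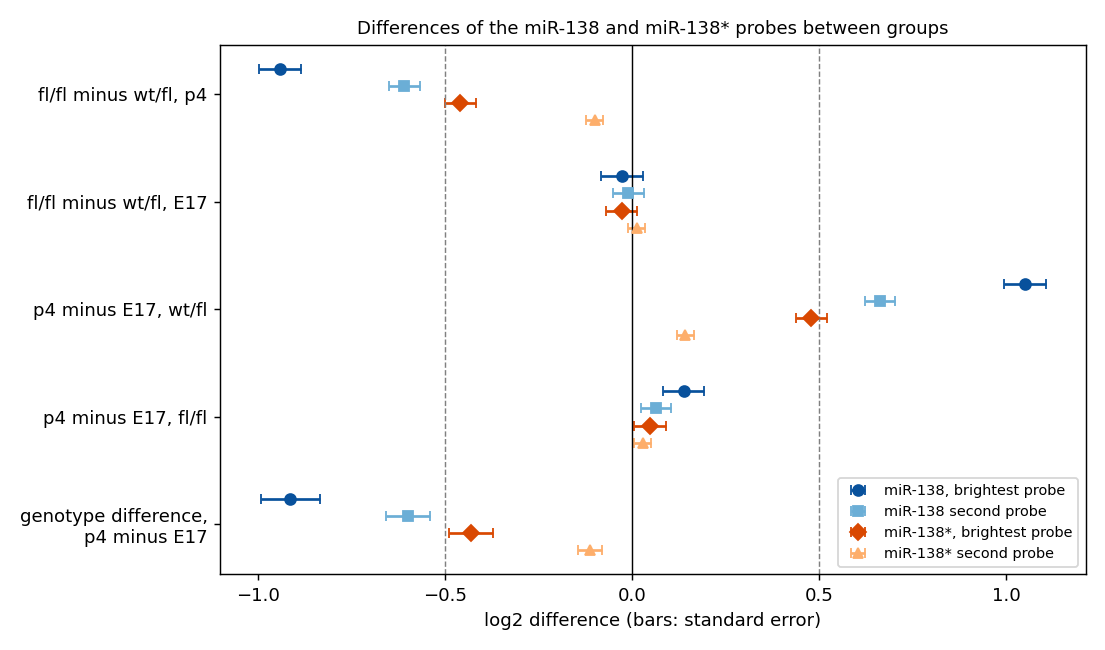
Log2 differences of the normalized signal for the 4 probes of miR-138 and miR-138*, with standard errors from the fit over 16 arrays. Dashed lines mark the limit of 0.5 on size. The p4 genotype difference of the 4 probes ran from -0.94 to -0.10 and the rise with age in controls from 0.14 to 1.05, while all differences at E17 lay between -0.03 and 0.01.

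Over the 16 arrays the 2 probes of miR-138 had a Pearson correlation of 0.996. Among the brightest probes of the 280 other expressed miRNAs, the 5 most similar to miR-138 were miR-138* (r = 0.990), miR-146b (0.986), miR-340-5p (0.977), miR-24-1* (0.973) and miR-30b (0.962). These values describe the profiles. All 5 had their highest mean in p4 controls, and all arrays share the same normalization. miR-138*, miR-146b, miR-340-5p and miR-24-1* were well above background on the 4 p4 control arrays and on no other array. Their correlations with miR-138 therefore rest on those 4 arrays against readings near background, and the sizes of their p4 differences are limited by background in mutants. miR-146b, of the miR-146 family known for feedback on innate immune signalling, had a difference of -2.12 in p4 mutants (standard error 0.0619, limma adjusted p = 6.23e-12). miR-30b had -0.55 (adjusted p = 7.70e-06). miR-340-5p and miR-24-1*, the passenger strand of a mir-24 hairpin, had differences of -0.45 and -0.40 (adjusted p = 5.51e-07 and 6.09e-06), under the limit on size like that of miR-138*. Their differences between genotypes at E17 lay between -0.14 and -0.03, where miR-30b alone of the 4 was well above background. All 4 were picked for their likeness on these same arrays, so their pattern is no separate evidence.

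**Figure D5:**
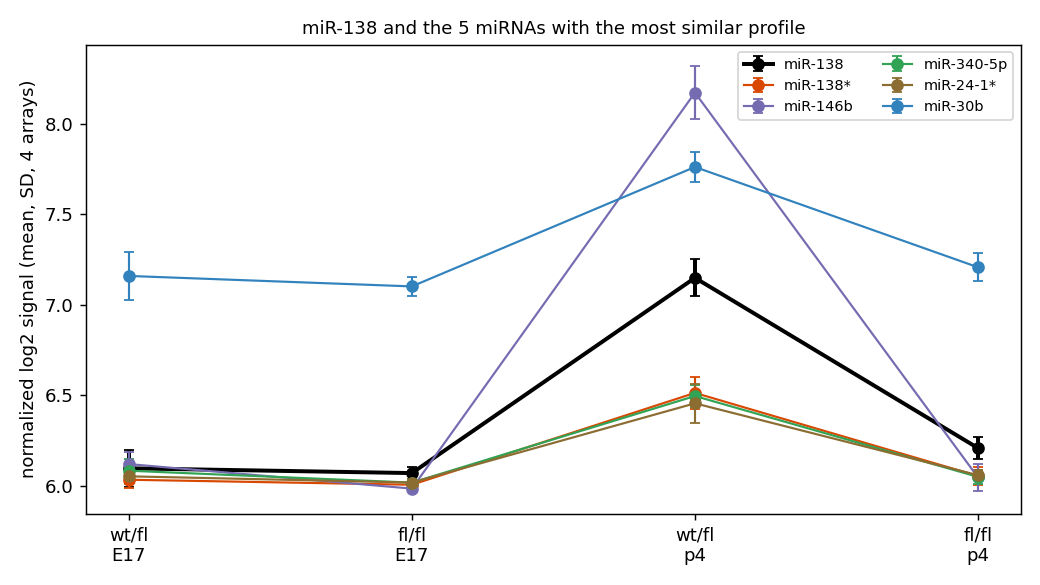
Normalized log2 signal (mean ± SD, 4 arrays) of the brightest probes of miR-138 and of the 5 miRNAs with the highest correlation to it, in the 4 groups. All 6 peak in p4 controls, with 7.15 for miR-138 and 8.17 for miR-146b, and heights are not comparable between miRNAs because probes differ in brightness.

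miR-138 is one of the miRNAs named in oligodendrocyte differentiation, and 8 others of that kind were read beside it. Of these, 6 were expressed in the nerve. In p4 mutants 3 were called lower, none higher and 3 were not called, with a median difference of -0.55 against 0.06 over all expressed miRNAs. Counted in the same way, by at least 1 called probe, 10.7% of all expressed miRNAs were called lower and 10.3% higher. The 3 were miR-338-3p, a miRNA of myelinating glia, with -2.85 (standard error 0.206, limma adjusted p = 9.29e-08), miR-338-5p, its partner strand, with -0.60 (adjusted p = 1.08e-07), and miR-9, known from neural progenitors, with -0.68 (adjusted p = 0.000603). miR-338-5p and miR-9 were detected on no p4 mutant array, so the sizes of their differences are limited by background. As partner strands, miR-338-3p and miR-338-5p are not independent members. At E17 none of the 6 was called between genotypes, as against 3.56% called higher and 2.49% lower of all. In controls miR-338-3p was called higher at p4 than at E17, by 0.87 (adjusted p = 0.00414), and miR-9 lower, by -0.50 (adjusted p = 0.00698), where 8.19% of all expressed miRNAs were called higher and 12.1% lower. miR-338-5p had a difference of 0.43 (adjusted p = 4.30e-06), under the limit on size like that of miR-138*. miR-219, a miRNA that promotes oligodendrocyte maturation, was detected on none of the 16 arrays.

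Because miR-138 is also counted among brain-enriched miRNAs, 13 others of that group were read as markers of axonal RNA, and 11 of them were expressed. In p4 mutants 1 was called higher, miR-329 with 0.82 (adjusted p = 0.000225), 2 were called lower, miR-9 and its partner strand miR-9* with -0.68 and -0.50, and 8 were not called, beside the 10.3% higher and 10.7% lower of all expressed miRNAs. Their median difference was 0.12, against 0.06 over all expressed miRNAs. miR-9 also belongs to the oligodendrocyte list and was detected on no p4 mutant array. The summed background-subtracted signal of the group was 762 to 892 in p4 controls, 493 to 846 in p4 mutants, 321 to 664 in E17 controls and 406 to 583 in E17 mutants, so the p4 groups overlapped, unlike those of miR-138. miR-153 and miR-129-5p were detected on no array. miR-124, a neuron-specific miRNA, was detected on 3 E17 control, 2 E17 mutant, 3 p4 control and 4 p4 mutant arrays.

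None of the markers of the other cells of the nerve was called lower in p4 mutants on the normalized scale, counting a miRNA as called where 1 of its probes was. This direction is relative to the other miRNAs, since the summed signal of mutants was about 51.6% of control, and without normalization 1 probe was called higher and 156 lower. Of 5 expressed fibroblast and smooth muscle miRNAs, 4 were called higher in p4 mutants, where 10.3% of all expressed miRNAs were called higher and 10.7% lower. The 4 were miR-199b* with 1.31 (adjusted p = 0.000162), miR-199a-5p with 1.14 (adjusted p = 0.000300), miR-214 with 1.09 (adjusted p = 0.00118) and miR-199a-3p with 0.78 (adjusted p = 0.0175). Their background-subtracted signals in p4 mutants were 129%, 133%, 131% and 114% of control. miR-199b*, miR-199a-5p and miR-199a-3p share a family name, so the 4 are not independent markers. The other expressed member, miR-143, was not called, with 0.08 (adjusted p = 0.635), and before scaling it was at 66.7% of control. At E17 the same 4 were called on at least 1 probe, where 3.56% of all expressed miRNAs were called higher, but by their brightest probes miR-199a-5p alone was, with 0.69 (adjusted p = 0.0402). The summed signal of this list was 5502 to 7541 in p4 controls, 5352 to 10016 in p4 mutants, 2301 to 4237 in E17 controls and 3747 to 4487 in E17 mutants. Of the erythroid, leukocyte and endothelial lists, with 3, 3 and 2 miRNAs expressed, 1 each was called higher in p4 mutants, beside the 10.3% of all. They were miR-451 with 1.35 (adjusted p = 0.0306), miR-223 with 0.81 (adjusted p = 6.48e-05) and miR-126-3p with 0.60 (adjusted p = 0.0123). Before scaling, miR-451 and miR-223 were at 125% and 133% of control and miR-126-3p was at 77.1%, so the direction of the last depends on the normalization. None of the 4 skeletal muscle miRNAs was called between genotypes at p4, though all 4 were higher in mutants. The differences were 0.95 for miR-206, 0.71 for miR-133b, 0.69 for miR-1 and 0.56 for miR-133a. Their standard errors were 0.37 to 0.49 (limma adjusted p = 0.118 to 0.256). Before scaling these miRNAs were at 205%, 147%, 127% and 145% of control. The summed signal in p4 controls and p4 mutants was 205 to 1746 and 453 to 1218 for the 3 erythroid miRNAs, 228 to 342 and 280 to 417 for the 5 leukocyte miRNAs, 1138 to 2381 and 927 to 1512 for the 2 endothelial miRNAs and 259 to 572 and 198 to 988 for the 4 muscle miRNAs. At E17 the same sums were 788 to 3283 and 2103 to 4787 for erythroid, 87.0 to 177 and 137.9 to 187 for leukocyte, 348 to 613 and 445 to 569 for endothelial and 203 to 833 and 203 to 857 for muscle miRNAs. miR-145 of the fibroblast and smooth muscle list and miR-142-5p and miR-150 of the leukocyte list were detected on no array. The ranges of both genotypes overlapped in each of these lists at both ages. The part of these cells in the miR-138 signal was not tested.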

How the data were processed

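Total RNA was labelled with Cy3 and hybridized to Agilent miRNA arrays (design 021828 in the file headers). Per the labels and file headers the spots were quantified with Feature Extraction 10.5.1.1. The deposited spot intensities and background-subtracted intensities are in scanner units and not normalized between arrays. A further table by the authors holds their quantile normalized intensities and served as an alternative. Other deposited columns are flags for detection and outlier spots.

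Here the log2 median intensities of the 13000 non-control spots of 16 arrays were quantile normalized and averaged per probe without outlier spots. miRNAs detected on at least 0.5 of the arrays of a group were kept (281 of 650). Probes were tested with limma 3.58.1 in R 4.3.3 with 1 mean per group over all 16 arrays and Benjamini-Hochberg adjustment over 681 probes. "At least" folds compare the bright group with the lowest signal well above background on each array. Background-subtracted signals were compared by exact two-sided permutation of 8 arrays (70 assignments). The 2 miRNAs and the marker lists were chosen with earlier results of these data known. Named besides them are the 5 miRNAs most similar to miR-138 by Pearson correlation and, from each list, up to 4 called members per comparison by size. Some members that were not called are named as well. The study used 4 pairs of littermates per age, but the labels do not say which arrays came from the same litter. Same-numbered arrays of both genotypes had deviations correlated between -0.52 and 0.46, which does not settle whether they were pairs. The main tests took the arrays as unpaired. The exact tests were checked on small sets of values with known answers. The number of arrays limits the precision.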

Additional observations from a re-analysis of the deposited data

Results flagged for a closer look

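For miR-138* the background-subtracted signal of 5.96 in p4 mutant replicate 1 was set apart above the other p4 mutants, and that of 1.04 in E17 control replicate 3 below the other E17 controls. The scanner software's error for this signal was 3.01 to 4.66 per array in p4 mutants and 2.74 to 3.33 in E17 controls, larger than either gap. Neither array was flagged as detecting miR-138*. For 24 groups of 4 arrays checked in this way, chance marks about 1 in 20.

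The p4 genotype difference minus the E17 one passed the limit on p in a test of the difference itself. It was -0.91 for the brightest miR-138 probe, -0.60 for its second probe, -0.43 for the brightest miR-138* probe and -0.11 for the second miR-138* probe (limma adjusted p = 2.37e-06, 7.34e-06, 0.000179 and 0.0298). All 4 probes were at background in both genotypes at E17, which held the E17 difference near 0, so the test does not show that the genotype effect changed. The last of the probes was well above background on no array.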

How the results depend on the processing

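For miR-138, called lower in p4 mutants, leaving out each array in turn moved the difference between -0.97 and -0.89, and 29 of 31 alternatives kept the call. Scaling each array to its 75th percentile gave -0.48 (limma adjusted p = 0.00598), under the limit on size. This scaling put the median of all probes at 0.79, and relative to that median miR-138 stood at -1.28 and miR-138* at -0.61. Without normalization the values relative to the median were the same, since this scaling shifts all probes of an array alike. They therefore do not show that the call holds under this scaling. A limit of 1 on size ended the calls of -0.94 at p4 and -0.91 for the change of the genotype difference. The rise of the brightest miR-138 probe with age in controls stayed called under all 31. The second miR-138 probe lost its calls at p4, with age in controls and for the change of the genotype difference under 3 of its alternatives each: 75th percentile scaling (-0.0018, 0.038 and -0.44), normexp on median signals (-0.40, 0.44 and -0.40) and the limit of 1.

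Without allowing for that median, the same scaling turned the sign of miR-138* at p4 (0.18) and with age in controls (-0.18), of both strands at E17 (0.40 and 0.41) and with age in mutants (-0.31 and -0.41), and of second probes (0.73 at p4 and -0.71 with age in controls for miR-138*, both past the limits in the opposite direction, 0.44 and -0.40 for miR-138, -0.44 and 0.27 for miR-138*). It put the median of all probes at 0.38 at E17, -0.74 with age in controls and -0.38 in mutants. No normalization gave 0.27 for miR-138 and 0.28 for miR-138* at E17, 0.31 for the second miR-138 probe there and -0.031 for the second miR-138* probe with age in mutants. Other differences near 0 changed sign too, in the second probes: -0.10 with background-subtracted signals, 0.00044 with normexp on median signals, 0.0043 with outlier spots kept and -0.0035 with the deposited intensities. At E17, leaving out control replicate 1 turned the sign for both miR-138 probes, and control replicate 2 for the second. Leaving out each array gave -0.069 to 0.012 for miR-138 and -0.038 to 0.014 for its second probe there.

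miR-138* met both limits under background-subtracted signals (-2.27 at p4, 2.60 with age in controls, -1.89 for the change of the genotype difference), under no normalization (-0.71, 0.98 and -0.98) and, with age in controls, under array weights (0.51). miR-138 met them with age in mutants under background-subtracted signals (1.28).

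For background-subtracted signals in percent of the compared group, a replicate block leaves 4 pairs and a smallest exact p of 0.125, so the values of 9.85, 2059 and 259 for miR-138 and 13.0 and 1268 for miR-138* could not pass. Those above 100 compare with E17 groups mostly not detected, and 13.0 rests on undetected p4 mutants, so they are no measured folds. In the limma fit the replicate block changed no call of either strand. Without subtracting the background the age ratio in mutants was 102 for miR-138 and 96.3 for miR-138*, and the E17 genotype ratio 125 and 127. As a share of the summed signal the former was 167 for miR-138 and the E17 ratio of miR-138* 103. With outlier spots kept the age ratio of miR-138* in mutants was 214 (exact permutation p = 0.0286). Leaving out single arrays gave 59.5 to 107 and 64.5 to 108 for the E17 ratios of miR-138 and miR-138*, and 152 to 256 for the age ratio of miR-138* in mutants, which passed without E17 mutant replicate 3.

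Probes called numbered 99 at p4, 19 at E17, 87 and 48 with age in controls and mutants and 45 for the change of the genotype difference. Over the alternatives they ranged from 21 to 530, 0 to 43, 19 to 510, 11 to 147 and 12 to 146. The split at p4, 45 higher and 54 lower, became 493 and 37 under 75th percentile scaling and 1 and 156 without normalization. Normexp on median signals, kept outlier spots and all alternatives for miR-138* and second probes were chosen after seeing the data. Normexp on mean signals was not run. The methods' t-test and the fit to the compared arrays alone were not run for the change of the genotype difference. Both strands at E17, miR-138* in p4 mutants and the second miR-138* probe throughout were limited by background.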
